A study of Rattus norvegicus with 16 samples.

Results

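Solute carriers are the membrane proteins, named Slc with a family number, that move amino acids, sugars, metal ions, nucleotides and other small molecules across the cell surface and the membranes of organelles. They were taken here as every spotted feature whose chip annotation gave exactly 1 gene symbol beginning with Slc and a digit, and features of the same symbol were averaged on each array. This gave 106 genes from 133 features, among 6241 named genes on the chip, and all 106 were tested. By family number they comprised 19 amino acid carriers, 8 glucose and sugar carriers, 14 metal ion carriers, 14 mitochondrial Slc25 carriers, 5 monocarboxylate carriers, 13 carriers of inorganic ions and protons, 15 carriers of nucleosides and nucleotide sugars, and 18 of other families. The symbol rule also took in Slc9a3r1, a scaffold protein that regulates an exchanger, and the Slc25 family includes the peroxisomal Slc25a17. Slc1a2, Slc7a11, Slc30a1, Slc39a1, Slc25a4 and Slc25a5 are not analysed here.

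The RNA came from neural stem and progenitor cells of the neocortex of embryonic day 14.5 Sprague-Dawley rats, which were maintained as monolayers on FGF-2 (fibroblast growth factor 2, 10 ng/ml). Re-plated cells then received either no added factor or PDGF-AA, a dimer of the platelet-derived growth factor A chain (10 ng/ml, added daily), during 12 h or 6 d. This made 4 groups of 4 two-colour arrays. Every array set 1 of these samples against RNA of cells treated with FGF-2, so all groups share that reference, whose variation no test here includes. Every value is a log2 ratio, sample to reference, where 1 means a doubling, 0 no difference and a negative value a lower ratio in the sample. The log base and the direction are not stated in the labels, so base 2 is an assumption and the direction is only likely. At least 2 RNA batches were used for each time point, but the arrays that share a batch are not named, so p-values reflect only how far hybridisations vary, part of which may be technical.

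The carriers fall into a few working partnerships in neural cells. Glial cells clear glutamate through Slc1 carriers, brain cells import glucose through Slc2 facilitators, creatine and taurine enter against their gradients with sodium through Slc6 carriers, and lactate and ketone bodies pass through Slc16 carriers. Metal ions enter through Slc11 and Slc39 carriers and are moved out of the cytosol by Slc30 and Slc40 carriers, while Slc25 proteins link the cytosol to the mitochondrial matrix. Proliferating progenitors need amino acids, phosphate and nucleotides for growth, whereas astrocytes are known for glutamate and glucose transport.

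The arrays carried mouse cDNA hybridised with rat RNA, so sequence differences between the species and among related carriers can change what a feature reports, and no spot brightness was available to give a level. Groups differed in how alike their 4 arrays were: over all features, with the dye effect removed, an array's mean correlation with the others of its group was 0.520 to 0.610 without factor at 12 h, 0.107 to 0.360 with PDGF-AA at 12 h, 0.454 to 0.563 without factor at 6 d and 0.106 to 0.280 with PDGF-AA at 6 d. The dye carried by the sample shifted 45 of the 106 carriers (42.5%, against 39.1% of all units tested), and the fit removes that shift. All 8 measured replication genes were lower without factor at both times, at -2.66 to -0.84 at 12 h and -1.42 to -0.83 at 6 d, and the ratios were read as sample over reference on that basis. Because cells were pooled, more cells of a type and more RNA per cell cannot be told apart.

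In all, 29 carriers changed against the FGF-2 reference in at least 1 group, and 77 passed in none of the 9 comparisons. A carrier is called changed where its p-value from limma, adjusted over all 12559 units on the chip by Benjamini-Hochberg, was under 0.05. Without factor at 12 h, 10 carriers were higher and 4 lower, 13.2% of the members against 11.7% of all units (5.21% higher and 6.48% lower). Without factor at 6 d, 18 carriers were higher and 2 lower, 18.9% of the members against 13.7% of all units (6.99% higher and 6.73% lower). With PDGF-AA at 12 h, 1 carrier was lower and none higher, 0.943% of the members against 3.01% of all units (2.35% lower). After 6 d of PDGF-AA, 5 carriers were higher and none lower, 4.72% of the members against 3.22% of all units (1.90% higher). Leaving out single arrays gave 7, 9 and 8 calls without factor at 12 h (without its replicates 1, 2 and 3), and 2 and 3 with PDGF-AA at 6 d (without its replicates 2 and 4). None of the 5 calls with PDGF-AA at 6 d passed with only that group in the fit or with the first number of the array titles, whose meaning is not stated, as a fixed term or fitted on arrays of its commonest value only. For PDGF-AA at 12 h leaving out arrays gave 4 and 3 calls without PDGF-AA 6 d replicates 4 and 3, and 2 without no-factor 6 d replicate 1 or 2 or PDGF-AA 12 h replicate 4. No test compared the members' shares with those of the chip. Among the 77, estimates against FGF-2 reached from -0.67 for the exchanger Slc9b2, without factor at 6 d, to 0.58 for the amino acid carrier Slc43a2, without factor at 12 h. The value of Slc9b2 rests on replicate 4 of its group, as its arrays read 0.14, -0.58, -0.03 and -2.21 and the estimate without that array was -0.04.

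**Figure D1:**
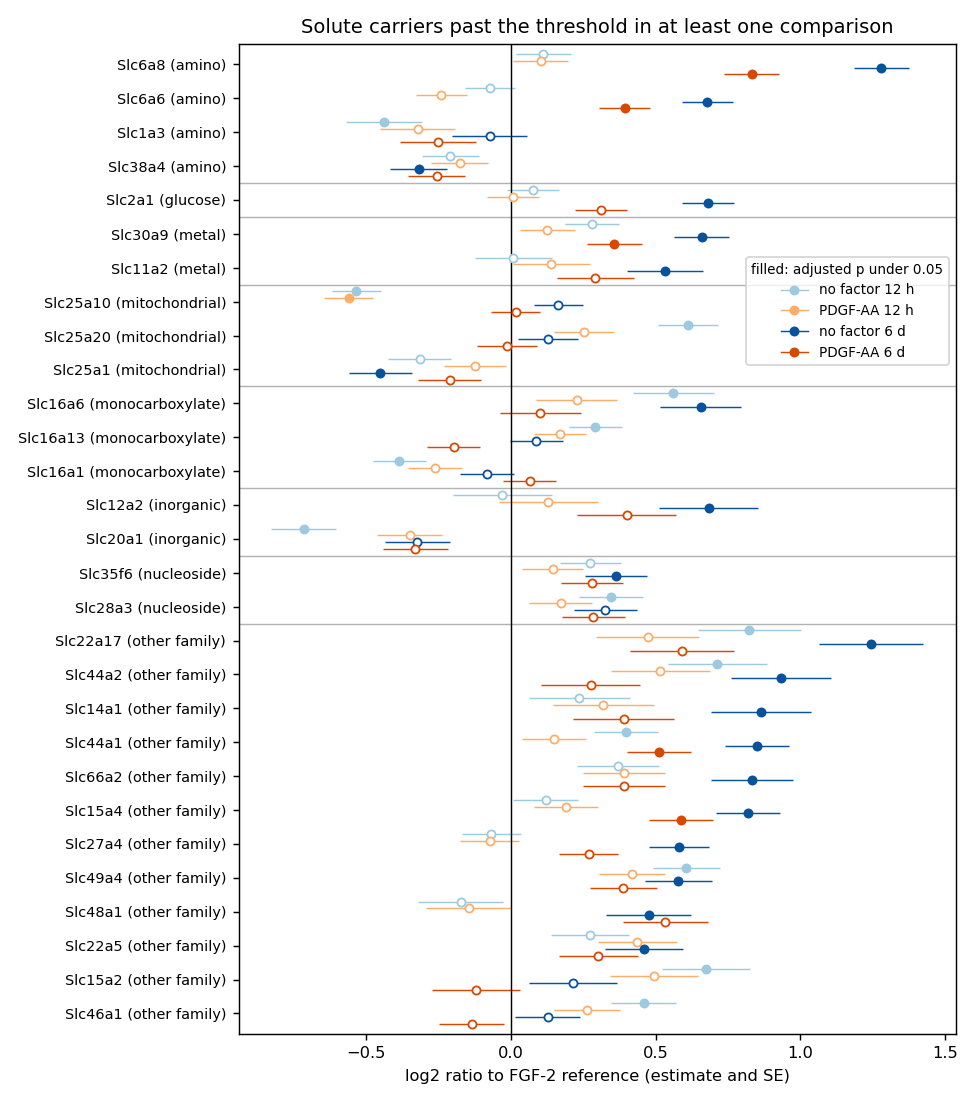
The log2 ratio to the FGF-2 reference (x axis, estimate and SE from the fit) of each carrier that passed in at least 1 comparison, grouped by role, in the 4 groups of 4 arrays, with filled points where the adjusted p was under 0.05. Slc6a8 and Slc22a17 lie farthest right without factor at 6 d, at 1.28 and 1.25, and Slc20a1 farthest left, at -0.71 without factor at 12 h.

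Slc6a8, the creatine transporter, and Slc6a6, the taurine transporter, belong to the amino acid group by family, and were its only members to rise. Of all units, 6.99% rose without factor at 6 d and 1.90% with PDGF-AA at 6 d. On the 4 arrays without factor at 6 d, Slc6a8 read 1.03, 1.33, 1.58 and 1.17. Under PDGF-AA at 6 d it read 0.50, 0.65, 1.23 and 0.95. All 8 arrays at 6 d were above 0, whereas the 12 h arrays lay on both sides of it, at 0.44, 0.08, -0.43 and 0.36 without factor and -0.15, 0.43, 0.45 and -0.32 with PDGF-AA. The negative readings at 12 h were all on arrays with the sample in Cy5, and the fitted dye effect of this gene was -0.53. Slc6a8 rose to 1.28 ± 0.09 without factor (SE, n = 4 arrays, 2.43-fold, adjusted p = 4.23e-07) and to 0.83 ± 0.09 with PDGF-AA (1.78-fold, adjusted p = 7.35e-05), and its 2 features gave 1.14 and 1.42 in the former. The call with PDGF-AA did not pass with only that group in the fit (adjusted p = 0.0630), on the commonest title number alone (0.68, adjusted p = 0.152) or with that number as a fixed term (0.67, adjusted p = 0.145).

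Slc6a6 followed with smaller ratios. Without factor at 6 d its arrays read 0.49, 0.63, 0.84 and 0.75, and with PDGF-AA at 6 d they read 0.29, 0.38, 0.54 and 0.37. At 12 h they read -0.11, 0.02, -0.31 and 0.11 without factor and -0.35, -0.19, 0.03 and -0.45 with PDGF-AA, so no 12 h array reached the lowest 6 d array. Slc6a6 rose at 6 d by 0.68 ± 0.09 without factor (adjusted p = 7.58e-05) and 0.39 ± 0.09 with PDGF-AA (adjusted p = 0.0186, not passed without PDGF-AA 6 d replicate 2 or 3 or without the dye term). Its 3 features ranged from 0.31 to 0.95 without factor at 6 d.

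Slc6a8, Slc6a6 and Slc25a10, and no other carriers, differed between 6 d and 12 h under both treatments. With PDGF-AA none of the 3 passed without the dye term, with only those groups fitted or with the title number as a term. The promoters of these 3 carriers are shown on that basis. They are the 300 bases from 250 before to 50 after the start in RefSeq's GRCr8 rat assembly, at chrX:156535767-156536066, chr4:125752252-125752551 and chr10:106264146-106264445, all on the plus strand, 5′ to 3′. Capitals mark matches, on either strand, to the GC box GGGCGG, the CCAAT box CCAAT, the E-box CACGTG, the cyclic AMP element TGACGTCA or the tonicity element, searched because taurine is an osmolyte.
Slc6a8: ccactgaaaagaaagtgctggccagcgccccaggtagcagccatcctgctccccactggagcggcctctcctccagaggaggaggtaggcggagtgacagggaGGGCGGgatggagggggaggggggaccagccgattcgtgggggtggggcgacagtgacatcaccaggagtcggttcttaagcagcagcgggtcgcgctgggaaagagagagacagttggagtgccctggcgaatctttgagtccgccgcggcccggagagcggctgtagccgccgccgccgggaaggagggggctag
Slc6a6: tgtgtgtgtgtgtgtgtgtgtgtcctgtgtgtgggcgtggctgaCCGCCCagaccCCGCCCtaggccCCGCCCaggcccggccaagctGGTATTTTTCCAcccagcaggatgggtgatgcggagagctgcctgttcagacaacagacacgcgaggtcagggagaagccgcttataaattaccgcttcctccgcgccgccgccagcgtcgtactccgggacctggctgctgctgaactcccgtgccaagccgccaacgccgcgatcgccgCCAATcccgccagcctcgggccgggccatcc
Slc25a10: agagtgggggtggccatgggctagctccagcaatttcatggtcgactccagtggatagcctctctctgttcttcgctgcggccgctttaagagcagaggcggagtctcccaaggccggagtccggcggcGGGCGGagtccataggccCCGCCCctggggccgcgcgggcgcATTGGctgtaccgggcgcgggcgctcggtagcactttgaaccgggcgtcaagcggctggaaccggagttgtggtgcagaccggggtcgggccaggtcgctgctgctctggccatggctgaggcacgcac
Slc6a8 held 1 GC box, Slc6a6 held 3 GC boxes, 1 CCAAT box and 1 tonicity element, and Slc25a10 held 2 GC boxes and 1 CCAAT box, with no E-box or cyclic AMP element in any. Among all 33469 promoters of that table, 33.1% held a GC box, 37.5% a CCAAT box, 6.42% an E-box, 1.83% a cyclic AMP element and 1.37% a tonicity element. Of the 76 carriers with a listed promoter, 67.1% held a GC box, 34.2% a CCAAT box and 14.5% an E-box. A cyclic AMP element was held by 2.63% and a tonicity element by 1.32%. The shares of the table count every listed promoter, those of the carriers only the first listed for each gene, so they are not strictly alike. GC content was 67.0%, 66.3% and 68.0% in the 3 promoters, against a median of 51.7% over the table. A match describes the letters of this window only, and Slc25a10 is described with the mitochondrial carriers.

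Slc1a3, the astroglial glutamate transporter GLAST, was lower without factor at 12 h, with -0.46, -0.34, -0.84 and -0.11 on the arrays and an estimate of -0.44 ± 0.13 (adjusted p = 0.0369). This call did not pass without no-factor 12 h replicate 1, 3 or 4 or without the dye term, and in 3 further alternatives its adjusted p was 0.0525 to 0.0662. In the other groups Slc1a3 was at -0.32 ± 0.13 with PDGF-AA at 12 h, -0.07 ± 0.13 without factor at 6 d and -0.25 ± 0.13 with PDGF-AA at 6 d, none of which passed. Slc38a4, a sodium-coupled neutral amino acid carrier, was lower without factor at 6 d, at -0.65, -0.05, -0.04 and -0.53 on the arrays. The 2 low readings came from the Cy5 arrays, and the estimate was -0.32 ± 0.10 (adjusted p = 0.0401, lost without the dye term, with the title number as a term or on its commonest value only and on leaving out 7 of the 16 arrays in turn).

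The carriers that bring large neutral amino acids and glutamine into growing cells did not pass. Slc7a5, the light chain of the large neutral amino acid exchanger, lay between -0.12 ± 0.11 (PDGF-AA, 6 d) and 0.20 ± 0.11 (PDGF-AA, 12 h) over the 4 groups. Its partner chain Slc3a2 lay between -0.26 ± 0.14 (PDGF-AA, 6 d) and 0.02 ± 0.14 (no factor, 6 d), and Slc38a2, a sodium-coupled carrier that takes up glutamine, between -0.18 ± 0.12 (PDGF-AA, 6 d) and 0.27 ± 0.12 (no factor, 6 d). Slc43a2 was the highest of the group at 12 h, at 0.58 ± 0.23 without factor and 0.24 ± 0.23 with PDGF-AA, and Slc7a8, another light chain of that exchanger type, the lowest with PDGF-AA at 6 d, at -0.53 ± 0.18, all without passing. On single arrays Slc7a8 then read -0.52, -0.90, -0.18 and -0.54. Over the 19 genes the median was -0.13 and -0.06 at 12 h without and with PDGF-AA, and 0.14 and -0.12 at 6 d, beside medians of all units from -0.0010 to 0.0043.

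Other genes of amino acid handling moved in both directions. Of 15 measured, 1 rose and 3 fell without factor at 12 h, 2 rose and 4 fell without factor at 6 d, and with PDGF-AA 1 fell at each time. Of all units, 5.21% rose and 6.48% fell without factor at 12 h, and 6.99% and 6.73% at 6 d. With PDGF-AA 2.35% of all units fell at 12 h and 1.32% at 6 d. Glud1, glutamate dehydrogenase, rose without factor by 0.95 ± 0.19 at 12 h and 0.81 ± 0.19 at 6 d, and Glul, glutamine synthetase, by 0.71 ± 0.18 at 6 d. Odc1, the first enzyme of polyamine synthesis, was at -0.79 ± 0.12 and -0.91 ± 0.12 without factor, and at -0.55 ± 0.12 with PDGF-AA at 6 d. Shmt2, the mitochondrial serine hydroxymethyltransferase, was at -0.79 ± 0.09 and -0.49 ± 0.09 without factor and -0.43 ± 0.09 with PDGF-AA at 12 h. Asns, asparagine synthetase, was at -0.60 ± 0.14 and -0.63 ± 0.14 without factor, and Got2, the mitochondrial aspartate aminotransferase, at -0.49 ± 0.15 without factor at 6 d.

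Slc2a1, the GLUT1 glucose transporter, was the only one of the 8 glucose and sugar carriers to change. Its arrays read 0.62, 0.82, 0.74 and 0.55 without factor at 6 d, above every array of the other groups. At 12 h they read -0.03, 0.21, 0.07 and 0.05 without factor and 0.21, 0.10, -0.09 and -0.19 with PDGF-AA. Under PDGF-AA at 6 d they read 0.12, 0.19, 0.46 and 0.47. Slc2a1 rose by 0.68 ± 0.09 without factor at 6 d (1.60-fold, adjusted p = 9.57e-05), and its 2 features gave 0.64 and 0.72. With PDGF-AA at 6 d it was at 0.31 ± 0.09 and did not pass (adjusted p = 0.0744). Without factor at 6 d 13.7% of all units changed, so the count for this role is near the chip's share.

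Slc2a3, the neuronal glucose transporter GLUT3, ranged only from -0.08 ± 0.11 without factor at 12 h to 0.17 ± 0.11 with PDGF-AA at 6 d. The extremes of the group were otherwise Slc5a11, an inositol carrier, at -0.18 without factor at 12 h and -0.14 with PDGF-AA at 6 d, Slc2a4 (GLUT4) at -0.04 and Slc50a1 at 0.16 with PDGF-AA at 12 h, and Slc37a3 at 0.44 without factor at 12 h and -0.26 at 6 d. The last of these was 0.02 without no-factor 6 d replicate 4, and Slc5a11 was at -0.08 without no-factor 12 h replicate 1. With PDGF-AA, Slc5a11 was at -0.01 without PDGF-AA 6 d replicate 4, and Slc50a1 at 0.04 without PDGF-AA 12 h replicate 1. The median of the 8 genes was 0.02, 0.07, 0.16 and 0.05 in the order no factor and PDGF-AA at 12 h, then no factor and PDGF-AA at 6 d.

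Glycolytic partners divided by enzyme. Of 12 measured, 2 rose and 2 fell without factor at 12 h, 2 fell with PDGF-AA at 12 h, 3 rose and 3 fell without factor at 6 d, and 1 rose with PDGF-AA at 6 d. The shares of all units without factor were 5.21% higher and 6.48% lower at 12 h, and 6.99% and 6.73% at 6 d. With PDGF-AA 2.35% of all units were lower at 12 h and 1.90% higher at 6 d. Aldoc, the aldolase of astrocytes, rose without factor by 1.29 ± 0.23 at 12 h and 0.89 ± 0.23 at 6 d, and Hk1, a hexokinase, by 0.42 ± 0.11 and 0.35 ± 0.11. Pfkl, a phosphofructokinase, rose at 6 d by 0.62 ± 0.10 without factor and 0.43 ± 0.10 with PDGF-AA. Pgk1, phosphoglycerate kinase, was at -0.77 ± 0.10 and -0.73 ± 0.10 without factor and at -0.43 ± 0.10 with PDGF-AA at 12 h, and Pgam1, phosphoglycerate mutase, at -0.71 ± 0.11, -0.49 ± 0.11 and -0.47 ± 0.11 in the same groups. Pkm, pyruvate kinase, was at -0.43 ± 0.09 without factor at 6 d.

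Among the 14 metal ion carriers, Slc30a9 and Slc11a2 rose and none fell. At 6 d 6.99% of all units rose and 6.73% fell without factor, and 1.90% and 1.32% with PDGF-AA. Slc30a9, a member of the zinc transporter family, read 0.77, 0.58, 0.75 and 0.54 without factor at 6 d and 0.59, 0.35, 0.12 and 0.38 with PDGF-AA at 6 d. It read 0.37, 0.32, 0.08 and 0.36 without factor at 12 h and 0.29, 0.12, 0.20 and -0.11 with PDGF-AA at 12 h, so 15 of the 16 arrays were above 0. Slc30a9 rose at 6 d by 0.66 ± 0.09 without factor (adjusted p = 0.000184). With PDGF-AA at 6 d the estimate of 0.36 ± 0.09 passed narrowly (adjusted p = 0.0480) and lost its call without the dye term and on leaving out 14 of the 16 arrays in turn.

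Slc11a2, the divalent metal transporter DMT1 that imports iron, read 0.46, 0.48, 0.94 and 0.25 without factor at 6 d. At 12 h its arrays without factor split by dye, at 0.71 and 0.29 in Cy3 against -0.53 and -0.44 in Cy5. With PDGF-AA at 12 h they read 0.34 and 0.42 in Cy3 against -0.36 and 0.16 in Cy5. With PDGF-AA at 6 d they read 0.18 and 0.89 in Cy3 against -0.03 and 0.13 in Cy5. Slc11a2 rose by 0.53 ± 0.13 without factor at 6 d (adjusted p = 0.0111), a call that did not pass without no-factor 6 d replicate 1 or 3. Nor did it pass without the dye term (adjusted p = 0.124), on the commonest title number alone (adjusted p = 0.0790), with that number as a term (adjusted p = 0.0923) or with the first feature of the symbol alone. Slc40a1, the iron exporter ferroportin, lay between -0.19 ± 0.13 (PDGF-AA, 12 h) and 0.08 ± 0.13 (no factor, 6 d).

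The remaining metal carriers gave no call. Their extremes were the zinc carriers Slc39a4 at -0.20 and Slc39a14 at 0.31 without factor at 12 h, Slc39a8 at -0.14 without factor at 6 d, and Slc30a5 at -0.35 with PDGF-AA at 6 d. The value of Slc30a5 rests on 1 reading of -2.71 by 1 of its 2 features on PDGF-AA 6 d replicate 2, and without that array the estimate was -0.05. Slc39a8 was at 0.02 without no-factor 6 d replicate 3, and Slc39a4 at -0.05 without no-factor 12 h replicate 4. Slc39a14 carried the strongest dye effect among the members, at -1.29, with single arrays from -0.89 to 1.24. Medians over the 14 genes were -0.01 and 0.02 at 12 h and 0.04 and 0.03 at 6 d, without and with PDGF-AA.

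Of 13 other genes of metal handling, 3 rose and 1 fell without factor at 12 h, 4 rose and 1 fell without factor at 6 d, none passed with PDGF-AA at 12 h (2 at an unadjusted p under 0.05), and 1 rose with PDGF-AA at 6 d. Beside these, 5.21% of all units rose and 6.48% fell without factor at 12 h, and 6.99% and 6.73% at 6 d. With PDGF-AA at 6 d 1.90% of all units rose. The count at an unadjusted p has no such share beside it. The ferritin light chain Ftl1, part of the iron store, rose without factor by 0.56 ± 0.10 at 12 h and 0.89 ± 0.10 at 6 d, and with PDGF-AA by 0.53 ± 0.10 at 6 d. The heavy chain Fth1 rose by 0.42 ± 0.11 without factor at 6 d. Metallothioneins, which bind zinc and copper, rose without factor, Mt1 by 0.68 ± 0.12 and 0.67 ± 0.12 and Mt2 by 0.70 ± 0.12 and 0.80 ± 0.12 at 12 h and 6 d. Tfrc, the transferrin receptor, was at -0.51 ± 0.12 without factor at 12 h, and Aco1, the cytosolic aconitase that also binds iron-response elements, at -0.34 ± 0.09 without factor at 6 d.

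**Figure D2:**
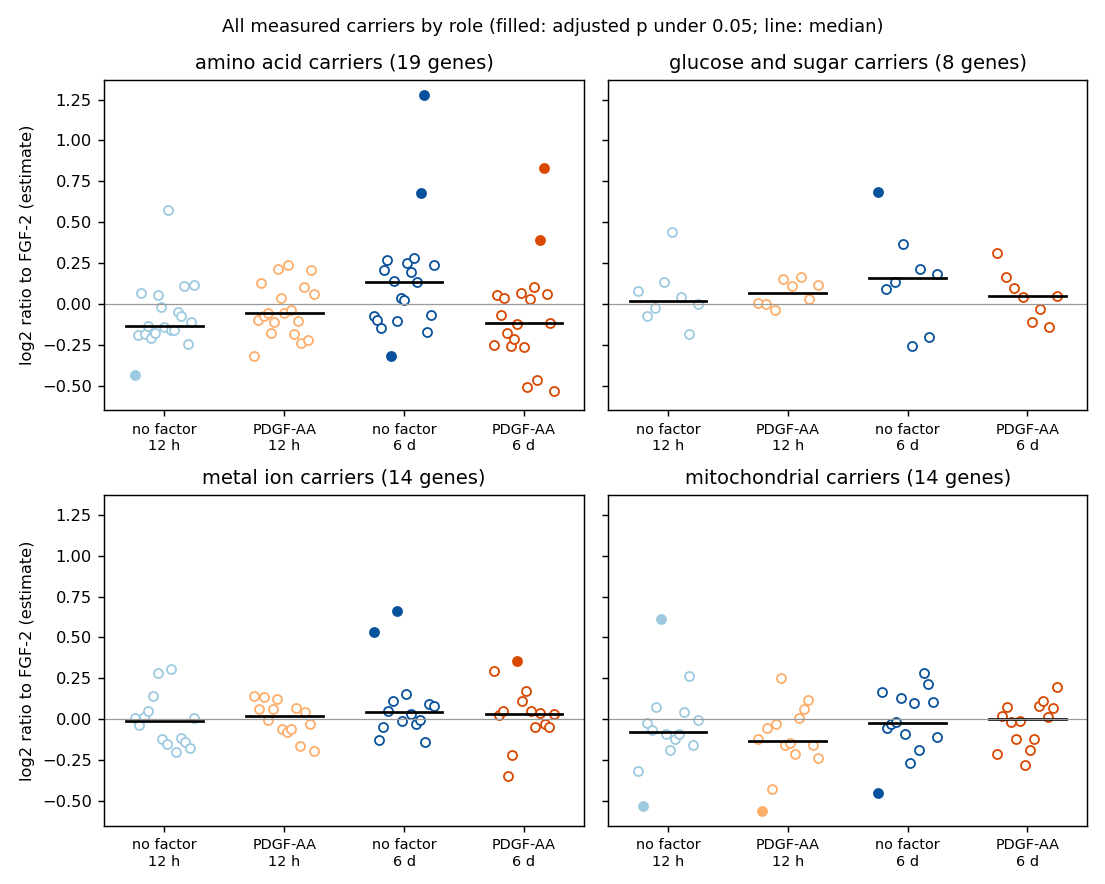
Each point is the estimated log2 ratio to FGF-2 (y axis) of 1 carrier in 1 group of 4 arrays, for the amino acid, glucose and sugar, metal ion and mitochondrial carriers, with the median as a line and filled points at adjusted p under 0.05. Medians lie between -0.13 and 0.16, and in some groups an open point lies farther from 0 than a filled point of the same role.

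Slc25a10, the mitochondrial dicarboxylate carrier that exchanges malate or succinate for phosphate, was the only carrier that changed with PDGF-AA at 12 h. Its arrays read -0.62, -0.57, -0.55 and -0.40 without factor at 12 h and -0.77, -0.55, -0.23 and -0.69 with PDGF-AA at 12 h. At 6 d they read 0.02, 0.27, 0.36 and 0.01 without factor and 0.03, -0.08, 0.17 and -0.06 with PDGF-AA, all above the highest 12 h array. Slc25a10 fell at 12 h, to -0.53 ± 0.08 without factor (adjusted p = 0.000448) and -0.56 ± 0.08 with PDGF-AA (adjusted p = 0.00197), 1.45-fold and 1.47-fold lower.

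Slc25a20, which carries acylcarnitines into the matrix for fatty acid oxidation, rose without factor at 12 h, with 0.72, 0.72, 0.54 and 0.47 on the arrays and an estimate of 0.61 ± 0.10 (1.53-fold, adjusted p = 0.000772). It read 0.49, 0.35, 0.01 and 0.16 with PDGF-AA at 12 h (0.25 ± 0.10, adjusted p = 0.262), and stood at 0.13 ± 0.10 and -0.01 ± 0.10 at 6 d without and with PDGF-AA. Slc25a1, the citrate carrier that exports citrate for fatty acid synthesis, was lower without factor at 6 d, at -0.38, -0.51, -0.62 and -0.30 on the arrays. The estimate was -0.45 ± 0.11 (adjusted p = 0.00895, not passed without no-factor 6 d replicate 3 or with the title number as a term), beside -0.31 ± 0.11 without factor at 12 h (adjusted p = 0.0733), -0.12 ± 0.11 with PDGF-AA at 12 h and -0.21 ± 0.11 with PDGF-AA at 6 d.

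No other of the 14 mitochondrial carriers passed. Of all units, 11.7% changed without factor at 12 h, 13.7% without factor at 6 d and 3.01% with PDGF-AA at 12 h. Slc25a3, the phosphate carrier that feeds ATP synthesis, ranged from -0.27 ± 0.11 (no factor, 6 d) to -0.14 ± 0.11 (PDGF-AA, 12 h), with its 3 features from -0.66 to -0.04 in the former group. The lowest feature read -2.20 on no-factor 6 d replicate 4 against -0.23 to -0.05 on the others, and without that array the estimate of the gene was -0.10. Extremes among the rest at 6 d were Slc25a33, a pyrimidine nucleotide carrier, at 0.28 without factor (0.08 without no-factor 6 d replicate 1), and with PDGF-AA Slc25a26, which carries S-adenosylmethionine, at -0.28 and Slc25a48 at 0.20. Slc25a48 was then at 0.11 without PDGF-AA 6 d replicate 2. The 2 features of Slc25a48 differed in sign in at least 1 comparison, as did those of Slc25a32 and the 3 of Slc25a3. The median over the 14 genes was -0.08 and -0.13 at 12 h, and -0.03 and 0.00 at 6 d, without and with PDGF-AA. No test compared these medians with those of other families.

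In a list of 14 measured genes of the mitochondrial outer membrane, protein import and citrate use, none rose in any group. Without factor 3 fell at 12 h and 5 at 6 d, with PDGF-AA none passed at 12 h (3 at an unadjusted p under 0.05) and 1 fell at 6 d. Among all units 6.48% fell at 12 h and 6.73% at 6 d without factor, and 2.35% and 1.32% with PDGF-AA. Rises took in 5.21% and 6.99% of all units without factor, and 0.661% and 1.90% with PDGF-AA. The count at an unadjusted p has no such share beside it. Vdac2, a channel of the outer membrane, was at -0.41 ± 0.09 and -0.55 ± 0.09 without factor and -0.40 ± 0.09 with PDGF-AA at 6 d. Import subunits made up the others, with Timm17b at -0.38 ± 0.10 at both times without factor, Timm23 at -0.37 ± 0.11 at 12 h, and Timm13 at -0.51 ± 0.12, Timm50 at -0.34 ± 0.08 and Tomm22 at -0.24 ± 0.07 at 6 d.

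Of the 5 monocarboxylate carriers, 2 rose and 1 fell without factor at 12 h. In that group 5.21% of all units rose and 6.48% fell. Slc16a1, the lactate and ketone body carrier MCT1, was lower without factor at 12 h, at -0.48, -0.31, -0.58 and -0.17 on the arrays, with an estimate of -0.38 ± 0.09 (adjusted p = 0.0109, not passed without no-factor 12 h replicate 1 or 3). Its 2 features gave -0.69 and -0.08, and the call did not pass with the first feature of the symbol alone. Slc16a6 rose without factor, by 0.56 ± 0.14 at 12 h (adjusted p = 0.0136, not passed without no-factor 12 h replicate 1, 2 or 3) and 0.66 ± 0.14 at 6 d (adjusted p = 0.00400). Its arrays split by dye, reading 1.09 and 0.90 in Cy3 against 0.12 and 0.14 in Cy5 at 12 h, and neither call passed without the dye term. Slc16a13 was at 0.29 ± 0.09 without factor at 12 h (adjusted p = 0.0474, lost without the dye term and on leaving out 9 of the 16 arrays in turn). Nor did Slc16a13 pass with only that group in the fit or with the title number as a term.

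Slc20a1, the sodium-phosphate cotransporter PiT1, had the lowest estimate of any called member. It read -1.14, -0.45, -0.57 and -0.71 without factor at 12 h and fell to -0.71 ± 0.11 (1.64-fold lower, adjusted p = 0.000413). With PDGF-AA at 12 h it read -0.20, -0.41, -0.66 and -0.13 (-0.35 ± 0.11, adjusted p = 0.120), and at 6 d it stood at -0.32 ± 0.11 without factor and -0.33 ± 0.11 with PDGF-AA, neither past the threshold. Slc12a2, the NKCC1 cotransporter that loads chloride into immature neurons and glia, rose without factor at 6 d, at 0.72, 0.43, 0.30 and 1.29 on the arrays and 0.68 ± 0.17 in the fit (adjusted p = 0.0115). Its 3 features gave 0.62 to 0.75, and the call did not pass without no-factor 6 d replicate 4 or with the first feature alone. Beside it, Atp1b2, the glial subunit of the sodium pump whose gradient drives such carriers, rose by 0.94 ± 0.29 (adjusted p = 0.0385), 1 of 3 pump genes measured. In that group 6.99% of all units rose.

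Nucleoside and nucleotide sugar carriers gave 2 calls of small size. Slc28a3, a concentrative nucleoside transporter, was at 0.35 ± 0.11 without factor at 12 h (adjusted p = 0.0497). Its call was lost without the dye term, with the title number as a term and on leaving out 11 of the 16 arrays in turn. Slc35f6 was at 0.36 ± 0.11 without factor at 6 d (adjusted p = 0.0299), and leaving out the dye term or any 1 of that group's arrays ended the call. Nor did Slc35f6 pass with only that group in the fit or with the title number as a term. The other 13 carriers of this group passed in no comparison. Without factor 11.7% of all units changed at 12 h and 13.7% at 6 d.

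The 18 carriers of other families held 6 of the 10 rises without factor at 12 h and 10 of the 18 at 6 d. Their median was 0.18 and 0.47 without factor at 12 h and 6 d, and 0.17 and 0.27 with PDGF-AA. They share no substrate, so the group is only what the family numbers left over. Without factor, 5.21% of all units rose at 12 h and 6.99% at 6 d. Slc22a17, a receptor for the iron-binding protein lipocalin 2, read 1.19, 0.65, 0.41 and 1.05 without factor at 12 h and 1.46, 1.48, 1.48 and 0.56 without factor at 6 d. It rose by 0.82 ± 0.18 (adjusted p = 0.00564) and 1.25 ± 0.18 (2.37-fold, adjusted p = 0.000190). With PDGF-AA it read 0.32, 0.44, 0.80 and 0.33 at 12 h and -0.26, 0.27, 0.57 and 1.78 at 6 d and did not pass. At 6 d the estimate was 0.59 ± 0.18 (adjusted p = 0.0903), with 0.27 when replicate 4 was left out. It passed with the arrays of the commonest title number, which keep 1 array of that group (adjusted p = 0.00872), and with the number as a term (1.52, adjusted p = 0.00817).

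Of the 3 Slc44 carriers measured, Slc44a1 and Slc44a2 rose and Slc44a4 did not pass. Slc44a1, which supplies choline for phosphatidylcholine, read 0.19, 0.73, 0.32 and 0.34 without factor at 12 h, 0.92, 0.44, 1.01 and 1.03 without factor at 6 d, and 0.99, 0.34, 0.32 and 0.40 with PDGF-AA at 6 d. Slc44a1 rose by 0.40 ± 0.11 (adjusted p = 0.0242), 0.85 ± 0.11 (adjusted p = 7.40e-05) and 0.51 ± 0.11 (adjusted p = 0.0143) in these groups. The first call did not pass without no-factor 12 h replicate 1, 2 or 4, and the last not without PDGF-AA 6 d replicate 1 or 4, and neither passed without the dye term. Slc44a2, a related carrier, rose without factor by 0.71 ± 0.17 at 12 h (adjusted p = 0.0109, not passed without no-factor 12 h replicate 2) and by 0.93 ± 0.17 at 6 d (adjusted p = 0.00128). Slc44a2 also read 1.16, 1.11, 1.22 and 0.25 at 6 d without factor and -0.39, 0.26, 0.44 and 0.80 with PDGF-AA. Slc44a4 was at -0.03 ± 0.11 and 0.06 ± 0.11 without factor at 12 h and 6 d, and at -0.06 ± 0.11 and -0.33 ± 0.11 with PDGF-AA (adjusted p = 0.142 for the last).

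Among peptide carriers, Slc15a4 of the lysosome and Slc15a2 (PEPT2) of the cell surface rose at different times. Slc15a4 read 0.63, 0.88, 0.95 and 0.83 without factor and 0.36, 0.82, 0.77 and 0.41 with PDGF-AA at 6 d, and rose by 0.82 ± 0.11 (adjusted p = 0.000117) and 0.59 ± 0.11 (adjusted p = 0.00582, not passed without PDGF-AA 6 d replicate 2). Slc15a2 read 0.73, 0.46, 0.55 and 0.95 without factor at 12 h and rose by 0.67 ± 0.15 (adjusted p = 0.00731), beside 0.49 ± 0.15 with PDGF-AA at 12 h (adjusted p = 0.0995) and 0.22 ± 0.15 and -0.12 ± 0.15 at 6 d without and with PDGF-AA. Slc49a4, a lysosomal membrane carrier, rose without factor at both times, by 0.61 ± 0.12 (adjusted p = 0.00208) and 0.58 ± 0.12 (adjusted p = 0.00231).

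Single carriers of several further families rose without factor at 6 d. Slc27a4, a fatty acid transport protein, was at 0.58 ± 0.10 (adjusted p = 0.000908), and Slc22a5, the carnitine carrier OCTN2, at 0.46 ± 0.14 (adjusted p = 0.0313, lost without the dye term, with the title number as a term or on its commonest value only and on leaving out any 1 of that group's arrays). Slc27a4 split by dye, at 0.92 and 1.19 in Cy3 against 0.03 and 0.18 in Cy5, and did not pass without the dye term. Slc14a1, a urea transporter of astrocytes, read 0.81, 1.39, 1.13 and 0.14 and rose by 0.86 ± 0.17 (adjusted p = 0.00248), and Slc66a2 by 0.83 ± 0.14 (adjusted p = 0.000676). Slc48a1, which moves heme out of lysosomes, was at 0.48 ± 0.15 (adjusted p = 0.0385), not passed without no-factor 6 d replicate 3 or 4 or PDGF-AA 12 h replicate 2, nor without the dye term or with only that group, and at 0.53 ± 0.15 with PDGF-AA at 6 d (adjusted p = 0.0594). Slc46a1, the proton-coupled folate carrier, rose by 0.46 ± 0.11 without factor at 12 h (adjusted p = 0.0123, not passed without no-factor 12 h replicate 1 or 3).

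**Figure D3:**
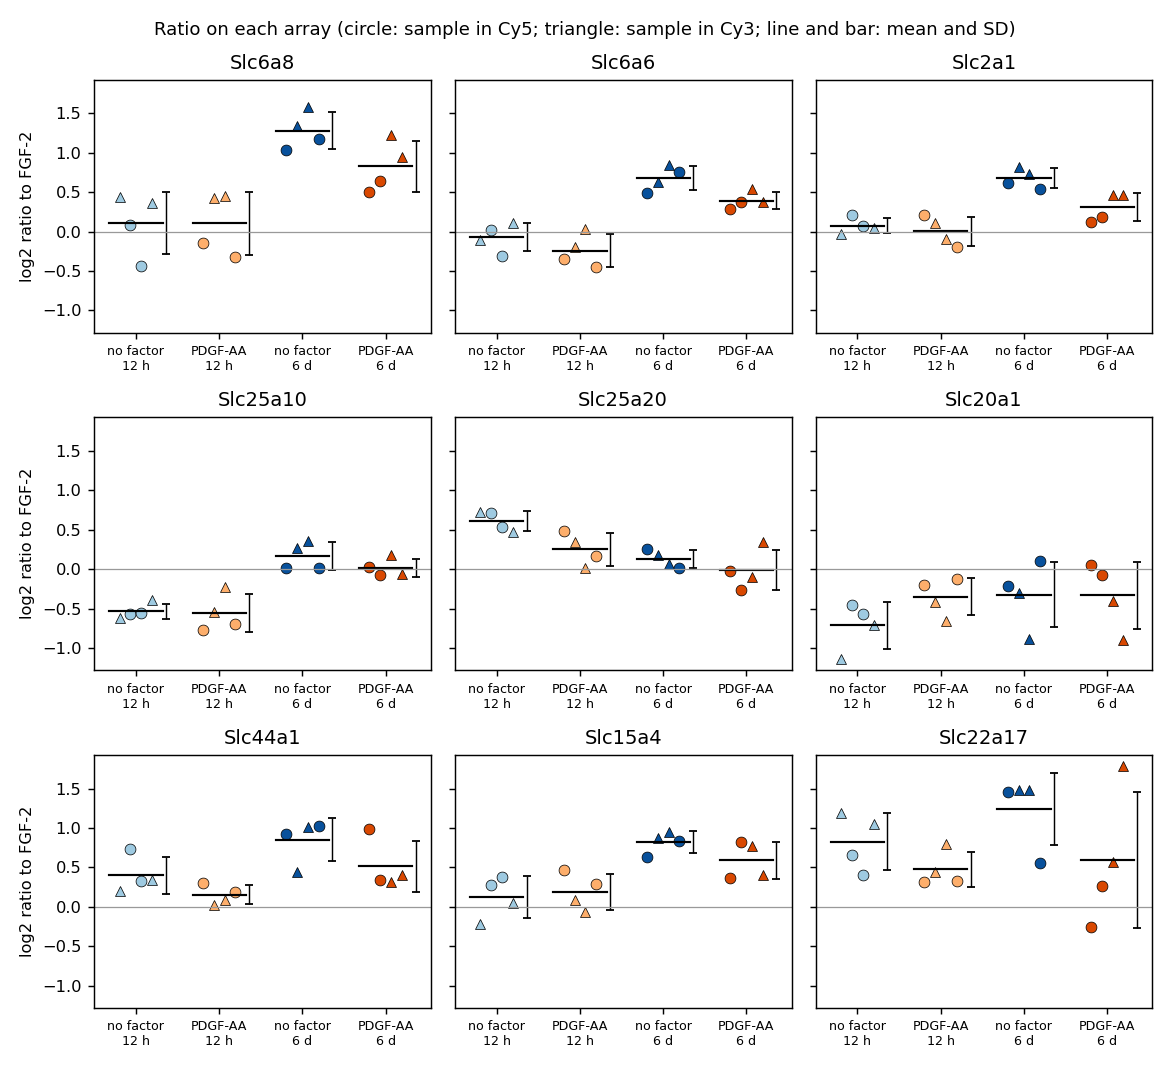
Log2 ratios to FGF-2 (y axis) of 9 carriers on each of the 16 arrays, by group, with circles where the sample was in Cy5, triangles where it was in Cy3, a line at the mean and a bar of 1 SD that includes the dye effect. Slc25a10 lies below 0 on all 8 arrays at 12 h and within -0.08 to 0.36 at 6 d, while Slc6a8 is above 0 on all 8 arrays at 6 d.

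Markers of cell types moved in all 4 groups. The lists were chosen with earlier results of these data known, so the counts only describe. Of all units, 6.99% were higher and 6.73% lower without factor at 6 d, and 1.90% and 1.32% with PDGF-AA at 6 d. The shares at 12 h were 5.21% and 6.48% without factor, and 0.661% and 2.35% with PDGF-AA. Without factor at 6 d, 4 of 4 measured astrocyte markers rose, from 0.89 for Aldoc to 3.22 for Clu, as did 3 of 3 of the oligodendrocyte lineage (0.77 for Cd9 to 3.09 for Sirt2), 2 of 4 of neurons and 4 of 5 mesenchymal markers, while 2 of 4 progenitor markers fell. With PDGF-AA at 6 d the counts were 3 of 4, 2 of 3, 0 of 4 and 3 of 5 higher, with 2 of 4 progenitor markers lower. The carrier Slc1a3, also astroglial, is not in these lists and passed in neither 6 d group. Without factor at 12 h, 1 astrocyte, 2 neuronal, 1 oligodendrocyte and 1 mesenchymal marker were higher, and 1 neuronal and 2 progenitor markers lower. With PDGF-AA at 12 h, the group in which Slc25a10 alone among the carriers passed, the neuronal Uchl1 was higher (0.50, adjusted p = 0.00926) and the progenitor Id1 lower (-0.92, adjusted p = 0.00781), and none of the 4 astrocyte, 3 oligodendrocyte lineage and 5 mesenchymal markers passed. None of the 2 microglial and 2 endothelial markers measured passed in any of the 4 groups, with estimates of -0.27 to 0.20. Ratios give no level, so which defining markers are absent was not measured, and the part of cell makeup in the carrier changes was not tested.

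Carriers were then set against time, 6 d against 12 h. Without factor 6 carriers were higher at 6 d and none lower (5.66% against 1.87% of all units), namely Slc6a8 by 1.17 ± 0.13 (2.25-fold, adjusted p = 0.000268), Slc6a6 by 0.75 ± 0.12 (adjusted p = 0.00376), Slc25a10 by 0.70 ± 0.12 (adjusted p = 0.00532), Slc2a1 by 0.61 ± 0.13 (adjusted p = 0.0208), Slc27a4 by 0.65 ± 0.14 (adjusted p = 0.0280) and Slc15a4 by 0.70 ± 0.16 (adjusted p = 0.0287). With PDGF-AA 3 were higher and none lower (2.83% against 1.07%). These were Slc6a8 at 0.73 ± 0.13 (adjusted p = 0.0126), Slc6a6 at 0.63 ± 0.12 (adjusted p = 0.0182) and Slc25a10 at 0.58 ± 0.12 (adjusted p = 0.0254), which also passed without factor. For Slc6a8 and Slc6a6 the estimate against FGF-2 at 12 h did not pass and that at 6 d did, whereas Slc25a10 was below the reference at 12 h and near it at 6 d. The calls with PDGF-AA numbered 0 without the dye term, with only the groups compared in the fit, with the title number as a term or on its commonest value only, or without PDGF-AA 6 d replicate 2, and 1 without PDGF-AA 6 d replicate 3 or PDGF-AA 12 h replicate 1, 2 or 4. Without factor they numbered 3 without the dye term or without no-factor 6 d replicate 2 or 3 or no-factor 12 h replicate 4. Those lost were each time Slc2a1, Slc27a4 and Slc15a4, with adjusted p = 0.0584, 0.648 and 0.0840 without the dye term. Without factor, Slc6a8, Slc6a6 and Slc25a10 passed in all 27 alternatives.

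Whether PDGF-AA changed the carriers beyond factor withdrawal was asked by setting it against no factor at the same time. No carrier passed at 12 h by limma (0 of 106 against 0.0159% of all units, 2 at an unadjusted p under 0.05, lowest adjusted p = 0.842), nor at 6 d (0 against 0.00796%, 17 unadjusted, lowest adjusted p = 0.418). The interaction of PDGF-AA with time gave none either (0 against 0% of all units, 3 unadjusted, lowest adjusted p = 0.995). The unadjusted counts have no share of all units beside them, so nothing particular to the carriers is read from them. The 2 carriers at an unadjusted p under 0.05 at 12 h were Slc25a20 and Slc20a1. Slc25a20 differed by -0.36 ± 0.15 (unadjusted 95% interval -0.67 to -0.05) and Slc20a1 by 0.37 ± 0.16 (0.03 to 0.70). Neither passed after adjustment. Slc25a10 differed by -0.03 ± 0.12, with an interval from -0.28 to 0.23.

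At 6 d the estimates with PDGF-AA were mostly nearer 0 than those without factor. Of the 20 carriers called without factor, 17 had a difference below 0, and 10 had an unadjusted 95% interval that excluded 0. The 20 were chosen on the same no-factor arrays, so the direction follows in part from the choice. Slc6a8 differed by -0.45 ± 0.13 (-0.73 to -0.16), Slc2a1 by -0.37 ± 0.13 (-0.64 to -0.10) and Slc44a2 by -0.66, the lowest of these, and Slc25a1 had the highest difference at 0.24 ± 0.15. Over all members the lowest was Slc7a8, at -0.77 ± 0.26 (-1.32 to -0.23), with arrays at 0.80, 0.58, -0.17 and -0.25 without factor. Slc22a17, at -0.65, passed only when PDGF-AA 6 d replicate 4 was left out (-0.97, adjusted p = 0.0378). A difference that did not pass does not show that the treatments act alike.

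**Figure D4:**
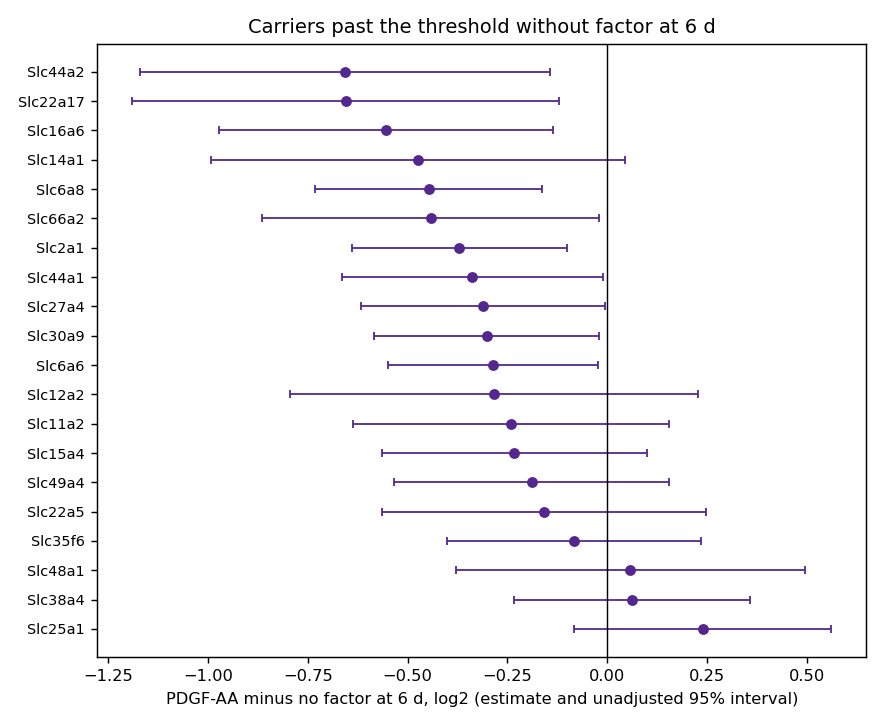
The difference between PDGF-AA and no factor at 6 d (x axis, log2, estimate with unadjusted 95% interval) for the 20 carriers called without factor at 6 d, from 4 arrays a group. The differences run from -0.66 for Slc44a2 to 0.24 for Slc25a1, 17 lie below 0, and none passed after adjustment.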

How the data were processed

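RNA of 16 samples in 4 groups was read on two-colour arrays. Per the labels, 40 µg of total RNA was labelled with Cy3 or Cy5 during reverse transcription, and mouse cDNA chips were hybridised, scanned and quantified, with dyes swapped on 2 of the 4 arrays of each group. The deposited log ratios are taken as log2, since the base, background correction and normalisation are not given in the sources used here. Another base would rescale every change. All 16 columns were used. Deposited medians lay between -0.0053 and 0.0387, and 62.9% to 89.8% of features past 1 on a group's Cy5 arrays kept their sign on the Cy3 arrays, so swapped arrays had been turned before deposit. No pair of arrays of the same dye orientation correlated below 0.0549. Sample over reference is the likely direction. Precision is limited by the number of arrays.

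Of 15151 features, 8833 carried 1 gene symbol in GEO's platform annotation, 606 several and 5712 no listed gene. Features with several symbols were not named, including 4 that list a solute carrier. Features of 1 symbol were averaged, arrays were centred on their median, and 12559 units with at least 3 values per group were fitted in limma 3.58.1 (R 4.3.3) over all 16 arrays, with group coefficients, a dye term and eBayes. Tests were two-sided. Benjamini-Hochberg adjustment ran over all units in each of 9 comparisons, with a threshold of 0.05. The fit was tested on simulated data. Named are carriers past the threshold in any comparison, the highest and lowest member of the 4 main roles against FGF-2, a fixed set of well-known carriers, and partner genes past the threshold. The members and the lists were chosen with earlier results of these data known. Alternatives left out the dye term, centring or single arrays, changed the samples, scaling, features or filter, or used the first number of the array titles, whose meaning the labels do not state. Promoters came from RefSeq's GRCr8 table, matched by symbol.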

Additional observations from a re-analysis of the deposited data

Results flagged for a closer look

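With the dye effect removed, 11 of 192 groups of 4 arrays had 1 array far from the other 3 by Dixon's ratio, and chance gives about 1 in 20. Without factor at 12 h, replicate 1 stood apart for Slc14a1 (-0.0743, others 0.32 to 0.37), Slc25a10 (-0.714, others -0.49 to -0.46) and Slc48a1 (0.20, others -0.30), and replicate 3 for Slc30a9 (0.0819, others 0.32 to 0.36). With PDGF-AA at 12 h, replicate 3 stood apart for Slc25a1 (-0.481, others -0.03 to 0.04), Slc39a4 (-0.195, others 0.12 to 0.18) and Slc40a1 (0.301, others -0.40 to -0.30). That array also had the lowest mean correlation with its group, at 0.107. Without factor at 6 d, replicate 4 stood apart for Slc37a3 (-1.03, others -0.05 to 0.05) and Slc38a4 (-0.235, others -0.36 to -0.34), and replicate 1 for Slc43a2 (0.838, others 0.02 to 0.09). With PDGF-AA at 6 d, replicate 4 stood apart for Slc37a3 (0.224, others -0.28 to -0.19).

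The ratio to FGF-2 differed between 6 d and 12 h by the fit's own test for 6 carriers without factor, with differences of 0.70 for Slc15a4, 0.70 for Slc25a10, 0.65 for Slc27a4, 0.61 for Slc2a1, 0.75 for Slc6a6 and 1.17 for Slc6a8. With PDGF-AA it did so for 3, at 0.58 for Slc25a10, 0.63 for Slc6a6 and 0.73 for Slc6a8. In 2 further cases all arrays lay below 0 at 12 h and above 0 at 6 d, in values with the dye effect left in. These were Slc25a48 with PDGF-AA, where the difference of 0.43 did not pass (adjusted p = 0.195), and Slc43a3 without factor, where 0.36 did not pass (adjusted p = 0.166).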

How the results depend on the processing

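Under the 27 alternatives run, none of the 49 carrier calls changed direction and 21 passed in all. Without factor at 12 h the 14 calls became 9 without the dye term, 9 with arrays scaled to a common spread, and 7 to 15 on leaving out single arrays (7, 9 and 8 without no-factor 12 h replicates 1, 2 and 3). The 1 call with PDGF-AA at 12 h became 2 with only that group in the fit, 5 with arrays of the commonest title number, 5 with that number as a fixed term, and 1 to 4 on leaving out arrays (4 and 3 without PDGF-AA 6 d replicates 4 and 3). Without factor at 6 d the 20 became 13 without the dye term and 14 to 22 on leaving out arrays. With PDGF-AA at 6 d the 5 became 2 without the dye term, 0 with only that group, 1 with either of these uses of the title number (Slc22a17, so none of the 5 was kept), and 2 to 6 on leaving out arrays (2 and 3 without that group's replicates 2 and 4). Title numbers differ on 3 of the 4 arrays of this group, so they cannot be told apart from its spread, and with the commonest number the lone array left is assumed to vary like the other groups. The 6 calls for 6 d against 12 h without factor became 3 without the dye term and 3 to 6 on leaving out arrays. The 3 with PDGF-AA became 0 without the dye term, 0 with only those groups, 0 with either of these uses of the title number, and 0 to 4 on leaving out arrays. PDGF-AA against no factor stayed at 0 at 12 h and reached 1 at 6 d without PDGF-AA 6 d replicate 4, and the interaction stayed at 0. The members' median was -0.03 without factor at 12 h (-0.0390 to 0.0136 on leaving out arrays), 0.005 with PDGF-AA at 12 h (0.0033 to 0.026), 0.07 without factor at 6 d (0.0587 to 0.0773, and 0.0499 with the first feature of a symbol) and 0.04 with PDGF-AA at 6 d (-0.0139 without replicate 4, to 0.0380, with 0.152 and 0.125 under these 2 uses of the title number). The cause of these shifts was not tested. No paired analysis was possible because the labels give no replicate numbers shared between groups. Fewer arrays per fit and unknown signal over background limit small changes.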
